A study of Mus musculus with 4 samples.

Results

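Malat1, Meg3, Neat1, Miat, Rian, Mirg, Snhg11, Snhg14 and Rmst are long noncoding RNAs that are kept largely in the nucleus and that single-nucleus libraries of brain capture well. These 9 genes were taken by their gene symbols, from a list drawn up with earlier results of these data known. Of the 31053 genes counted in each library, 7 matched the list, and Rian and Snhg14 are not analysed here. The 7 genes were followed in 52132 nuclei, over classes of brain cells, over clusters of neurons and between genotypes. In these nuclei Malat1 took more UMIs than all the other members together, and Meg3, Snhg11, Mirg and Miat were highest in neurons. Rmst was highest in a few kinds of neuron, with the few astrocyte nuclei near the level of inhibitory neurons. Neat1 was nearly absent from neurons.

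The study asked how loss of one functional copy of Csf1r, the receptor kinase that microglia need for survival, affects the brain before symptoms. Nuclei came from brains of untreated 2-month-old female C57/BL6 mice, which were either wild type (WT) or Csf1r+/-, with 1 inactivated copy of Csf1r. The 4 libraries analysed here came from 2 mice per genotype, and libraries from further mice of the study were not used here. Unique molecular identifiers (UMIs) were counted from the 3′ ends of nuclear RNA, so that levels, given as counts of the gene scaled to the UMI total of a class (CPM), are not corrected for transcript length and rank genes only by the share of UMIs they took.

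After filtering, the WT libraries held 16114 and 15247 nuclei, with medians of 5490 and 4636 UMIs per nucleus. The Csf1r+/- libraries held fewer nuclei, 9589 and 11182, at higher medians of 7454 and 6656 UMIs. Number and depth of nuclei thus went with genotype, and their part in the genotype differences below was not tested. WT replicate 2 stood apart in its median mitochondrial share, 0.656% against 0.144% to 0.268% in the other 3, and in its oligodendrocyte nuclei, 1217 against 329 to 451. Classes were named from markers, and each class name here means nuclei with that cell type's markers. The tight junction gene Cldn5 had a UMI in 85.2% of endothelial nuclei, against 0.522% of excitatory neurons. Of the 589 endothelial nuclei, 135 formed a cluster led by Vtn and Rgs5 that also held 6 markers of mural cells such as pericytes. The endothelial class is therefore not free of mural RNA. Csf1r in microglia measured 895 and 768 CPM in WT, against 583 and 564 CPM in Csf1r+/- libraries. Between 35 and 75 barcodes were shared by any 2 libraries. Because the libraries hold 2 mice per genotype, p-values describe the spread between these samples.

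The members act in different ways. Malat1 resides in nuclear speckles, where splicing factors gather, and Neat1 is the scaffold of paraspeckles, bodies built on the RNA together with proteins such as Nono and Sfpq. Meg3 and Mirg are read from the maternal chromosome within the imprinted Dlk1-Dio3 domain, whose long transcripts also carry small nucleolar RNAs (snoRNAs) and many microRNAs. Miat, also called Gomafu, is a neuronal RNA with repeats that match the splicing branch point and bind the splicing factor Sf1. Snhg11 is a neuronal snoRNA host gene, and Rmst is a neural RNA known from the developing midbrain that partners with the transcription factor Sox2.

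In the GRCm38 assembly, the build that the labels name as mm10, GENCODE M21 places Malat1 at chr19:5795690-5802672 and Neat1 at chr19:5824708-5845478, both on the minus strand and 22036 bases apart. The longest transcript of either gene is a single exon that spans the whole gene. Meg3 lies at chr12:109541001-109571726 and Mirg at chr12:109729764-109749460, both on the plus strand with 158038 bases between them. Miat is at chr5:112213228-112229395 (minus), Rmst at chr10:92071037-92165170 (minus) and Snhg11 at chr2:158375638-158386145 (plus). The annotation types Snhg11 as protein coding and the other 6 as long intergenic noncoding RNAs.

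The 3′ end of Malat1 is shown because the assay counts 3′ ends. The 72 bases at chr19:5795958-5796029 on the minus strand hold its encoded run of 12 A, in capitals, which lies 298 bases before the annotated transcript end. In the RNA this A-rich tract pairs with U-rich stretches upstream of it into a triple helix that protects the end left when RNase P cuts off a tRNA-like RNA.
Malat1: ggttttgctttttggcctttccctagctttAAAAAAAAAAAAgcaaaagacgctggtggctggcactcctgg

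The branch-point-like repeats of Miat are shown because they are the feature by which its splicing factor partner is known. The motif TACTAAC, in capitals, occurs 6 times in the longest Miat transcript (9163 bases in 7 exons), and at least once in 3.60% of 141767 annotated transcripts. The stretch from base 4941 to base 5072 of that transcript holds 3 of the 6 copies.
Miat: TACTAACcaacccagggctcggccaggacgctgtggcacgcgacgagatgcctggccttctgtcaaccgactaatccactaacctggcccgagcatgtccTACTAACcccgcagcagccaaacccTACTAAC

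MicroRNA hairpins of RefSeq (GRCm38.p6) lay within 3 of the genes on the same strand. Mirg held 14 hairpins with 26 mature microRNAs, Meg3 held 1 hairpin and 3 mature microRNAs, and Rmst held 2 hairpins with 4. A few are printed with the seed, bases 2 to 8, in capitals. They are examples of what the host transcripts carry: miR-453 and miR-496a-5p of Mirg share the seed GGUUGCC, and miR-485-3p and miR-154-3p share bases 3 to 8. The mature microRNAs themselves were not measured.
miR-453 (Mirg): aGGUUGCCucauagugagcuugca
miR-496a-5p (Mirg): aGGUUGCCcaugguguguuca
miR-485-3p (Mirg): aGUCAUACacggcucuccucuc
miR-154-3p (Mirg): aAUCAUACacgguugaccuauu
miR-134-5p (Mirg): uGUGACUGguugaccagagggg
miR-410-3p (Mirg): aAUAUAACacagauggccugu
miR-770-5p (Meg3): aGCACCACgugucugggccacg
miR-135a-5p (Rmst): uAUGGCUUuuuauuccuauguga
miR-1251-5p (Rmst): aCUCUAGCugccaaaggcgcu

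The Meg3 promoter is shown because levels of Meg3 and Mirg moved together over neurons, as described further on. The 300 bases at chr12:109540746-109541045 (plus strand, RefSeq GRCm38.p6) hold a cyclic AMP response element, TGACGTCA, which starts 57 bases before the transcription start, and a TATA box, TATAAA, 25 bases before it. Both are in capitals. The first motif, which reads the same on both strands, was present in 1.79% of 32851 promoters of this length, and the second, searched on the sense strand, in 8.32%. Of the promoters of the members in that table, those of Meg3 alone held either motif, and those of Neat1 and Rmst were not examined.
Meg3: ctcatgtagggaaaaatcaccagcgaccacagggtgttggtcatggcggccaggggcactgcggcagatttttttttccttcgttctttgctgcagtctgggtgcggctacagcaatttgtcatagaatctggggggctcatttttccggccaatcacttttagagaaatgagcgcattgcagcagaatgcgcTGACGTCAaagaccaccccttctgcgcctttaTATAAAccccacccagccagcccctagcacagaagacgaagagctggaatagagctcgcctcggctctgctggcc

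Malat1 was found in 100% of the nuclei of every class. Over all kept nuclei it took 5.81% ± 0.693 of UMIs (SD, n = 4 libraries), a mean of 418 UMIs per nucleus, against 0.769% for Meg3 and 0.356% for Snhg11. Its share was highest in oligodendrocyte and astrocyte nuclei, whose ranges overlapped. Oligodendrocyte nuclei had 12% in WT replicate 1, 11.3% in WT replicate 2, 14.7% in Csf1r+/- replicate 1 and 10.2% in Csf1r+/- replicate 2. In excitatory neurons the same libraries gave 5.72%, 6.08%, 7.20% and 5.66%. No library of excitatory neurons reached the lowest of oligodendrocyte nuclei. Csf1r+/- replicate 1 was the highest library in both classes and also in inhibitory neurons, where the shares were 4.77%, 4.63%, 5.86% and 4.52%. The mean in microglia was 5.50% and in endothelial nuclei 5.25%. From the oligodendrocyte precursors down to the other neurons, the ranges of neighbouring classes in the order of Malat1 overlapped. Single excitatory nuclei spanned 2.70% to 11.4% Malat1 (5th to 95th percentile) with a median of 5.94%, and oligodendrocyte nuclei 7.03% to 19.9% with a median of 12.3%.

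**Figure D1:**
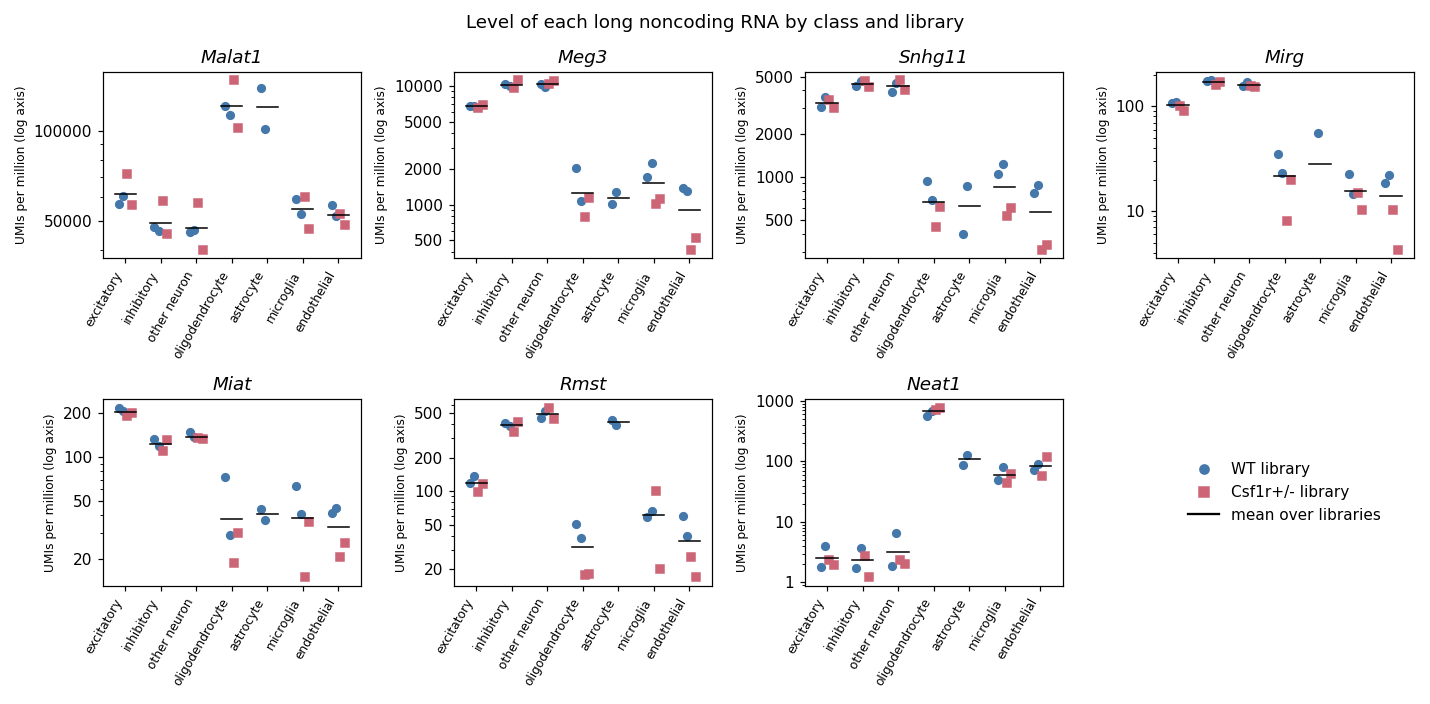
Level of each member (CPM, log axes that differ between panels) by class, with 1 point per library and a line at the mean over libraries with at least 10 nuclei of the class; an astrocyte library with 0 Mirg UMIs has no point. Malat1 and Neat1 peaked in oligodendrocyte nuclei at 120269 and 686, whereas Meg3, Snhg11, Mirg and Miat were highest in classes of neurons.

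Meg3, the imprinted RNA, was found in 99.8% of inhibitory neurons and in 100% of excitatory neurons. In inhibitory neurons it measured 10295 and 9905 CPM in WT, against 9662 and 11111 CPM in Csf1r+/- libraries. Excitatory neurons gave 6710, 6771, 6553 and 6882 CPM in the same order, below every inhibitory library. The other neurons were 4 clusters, thalamic and dentate granule neurons among them, that passed the marker rule of neither main class. Each held 1 or 2 of the 7 excitatory markers and 0 inhibitory markers. All but the dentate granule cluster had the excitatory marker Slc17a6. The excitatory class therefore leaves out neurons with excitatory markers. The other neurons had 10322 ± 517 CPM (SD, n = 4), and their range overlapped that of inhibitory neurons. Every library of microglia, oligodendrocyte and endothelial nuclei was lower, between 415 and 2238 CPM.

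Snhg11, the snoRNA host, followed the same order. Inhibitory neurons had 4278, 4637, 4639 and 4223 CPM (WT replicates 1 and 2, then Csf1r+/- replicates 1 and 2) and excitatory neurons 3044, 3582, 3435 and 3027 CPM. The ranges did not overlap. Of the 3 members with most UMIs, Snhg11 varied most with the depth of an excitatory nucleus. In excitatory neurons nuclei in the lowest quartile of UMIs had 1.47 to 1.55 times the Snhg11 share of those in the highest quartile, over the 4 libraries. For Malat1 this ratio was 1.08 to 1.15 and for Meg3 1 to 1.05. In inhibitory neurons it was 1.11 to 1.32 for Snhg11, 1.22 to 1.29 for Malat1 and 0.755 to 0.870 for Meg3. Excitatory neurons had a median of 7077 UMIs and inhibitory neurons 4606. The part of depth in the differences of these 3 members between the 2 classes was not tested.

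Mirg, the microRNA host of the same imprinted domain, had 175, 177, 161 and 169 CPM in inhibitory neurons, and excitatory neurons had 108, 111, 100.1 and 89.5 CPM, with no overlap. A UMI of Mirg was present in 53.0% of inhibitory and 51.8% of excitatory nuclei. After thinning each nucleus to 1000 UMIs the shares were 15.1% and 10.0%. Oligodendrocyte and microglia nuclei, thinned likewise, gave 1.79% and 1.16%.

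Miat, the branch-point-repeat RNA, had the opposite order between the main neuron classes. Excitatory neurons had 219, 207, 193 and 200 CPM and inhibitory neurons 133, 119, 109 and 131 CPM. Every excitatory library was above every inhibitory library. In nuclei thinned to 1000 UMIs, 18.7% of excitatory and 10.8% of inhibitory nuclei had a Miat UMI, against 3.06% of oligodendrocyte nuclei.

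Rmst, the midbrain-associated RNA, was highest in the other neurons, with 454, 524, 563 and 447 CPM, and inhibitory neurons had 413, 388, 338 and 420 CPM. The class level of excitatory neurons lay well under both, at 118, 138, 98.8 and 116 CPM. The cluster of Otx2os1, Ebf3 and Ebf1 held 7883 of the 15733 inhibitory nuclei and had 710 CPM. Over clusters, inhibitory neurons spanned 35.2 to 710 CPM and excitatory neurons 20.2 to 269 CPM. The part of that large cluster in the inhibitory level was not tested. Astrocyte nuclei were few, 43 in all, and came from a cluster divided again after the data were seen. Only the 2 WT libraries held at least 10 of them. Those gave 440 and 390 CPM of Rmst, a range that overlapped that of inhibitory neurons, and 52.5% of their nuclei had a UMI of the gene, at a median of 1998 UMIs. Microglia, oligodendrocyte and endothelial nuclei had a Rmst UMI in 5.80%, 5.80% and 6.65% of nuclei, at medians of 1259, 1811 and 1459 UMIs.

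Neat1, the paraspeckle scaffold, went against the label of a neuronal RNA. Oligodendrocyte nuclei had 561, 690, 715 and 778 CPM of it, and 61.8% of them had a Neat1 UMI. The 2 astrocyte libraries came next at 109 ± 29.7 CPM, and overlapped endothelial nuclei with 84.3 ± 26.8 CPM (SD, n = 4). Microglia had 59.0 ± 16.0 CPM, which overlapped endothelial nuclei and lay under both astrocyte libraries. In excitatory neurons Neat1 was at 1.79, 3.96, 2.33 and 1.93 CPM, and 1.90% of nuclei had a UMI. The highest of these values was that of WT replicate 2, the library with the most oligodendrocyte nuclei (1217). The part of oligodendrocyte RNA in the Neat1 counts of neurons was not tested. The classes of neurons overlapped in Neat1, and no order among them could be read.

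UMIs of pan-neuronal marker genes were counted in every non-neuronal class, and Meg3 and Snhg11 are set beside them here. Snap25, the synaptic vesicle fusion protein of neurons, had a UMI in 29.8% of oligodendrocyte, 29.8% of microglia and 28.7% of endothelial nuclei. The 6 pan-neuronal markers (Rbfox3, Snap25, Syt1, Stmn2, Rbfox1 and Celf2) summed in these 3 classes to 8.39% to 40.7% of their level in the neurons of the same library. Meg3 reached 5.12% to 26.8% of its neuronal level and was under the marker list in 12 of 12 class and library values. Snhg11 reached 7.62% to 29.6% and was under the list in 11 of 12. Single markers varied: Rbfox3 in endothelial nuclei was at 15%, 18.6%, 6.96% and 2.36% of its neuronal level, under Snhg11 in all 4 libraries. How much of the Meg3 and Snhg11 UMIs in these classes came from neurons was not tested.

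**Figure D2:**
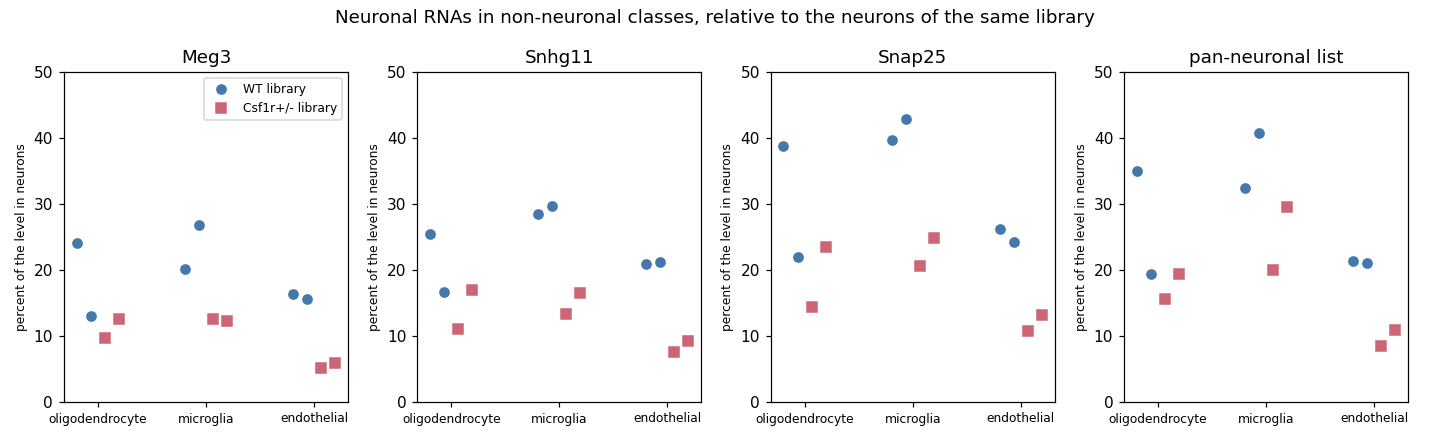
Level of Meg3, Snhg11, Snap25 and the 6 summed pan-neuronal markers in oligodendrocyte, microglia and endothelial nuclei, as a percent of the mean of excitatory and inhibitory neurons in the same library (1 point per library). In endothelial nuclei both Csf1r+/- libraries were under both WT libraries in all 4 panels, Meg3 at 5.12% and 5.82% against 16.4% and 15.5%. Snap25 is 1 of the 6 summed markers. Over members and classes, 18 of 42 shares of UMIs did not overlap between genotypes, in either direction.

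Excitatory and inhibitory neurons were then compared within libraries, to see which differences between the main neuron classes recurred over the 4 libraries. With edgeR's quasi-likelihood test on summed counts, library as a block and Benjamini-Hochberg adjustment over all genes, 6 of the 6 members tested differed. Of the 7982 genes tested 70.5% also did, 32.5% higher and 38% lower in excitatory neurons, so a call by itself sets no member apart. The size of the differences ranged widely. Rmst was lower in excitatory neurons by a log2 fold change of -1.56 ± 0.06 (SE, adjusted p = 1.83e-06) and Mirg by -0.57 ± 0.05 (adjusted p = 5.61e-05). Meg3 was lower at -0.43 ± 0.05 (adjusted p = 0.000259) and Snhg11 at -0.27 ± 0.04 (adjusted p = 0.0012). Miat was higher in excitatory neurons, 0.91 ± 0.04 (adjusted p = 3.85e-06), as was Malat1, 0.50 ± 0.07 (adjusted p = 0.000469). Neat1 had too few UMIs in neurons to be tested. These are differences of class sums, and 1 cluster, that of Otx2os1, Ebf3 and Ebf1, held 7883 of 15733 inhibitory nuclei. The other neurons, with excitatory but no inhibitory markers, entered neither sum. They held the highest and the lowest cluster of both Rmst (1915 and 17.6 CPM) and Meg3 (13121 and 2324 CPM). For all 6 members the cluster means of excitatory and inhibitory neurons overlapped. Excitatory and inhibitory clusters spanned 20.2 to 269 and 35.2 to 710 CPM for Rmst, and 5414 to 9641 and 3852 to 12863 CPM for Meg3. For Mirg they spanned 87.7 to 147 and 75.5 to 199 CPM, and for Snhg11 2966 to 4194 and 2252 to 5214 CPM.

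Scaling moved the size of these differences. With library totals alone in place of TMM factors the median of all genes moved by -0.19 on the log2 scale, and the share of calls that were higher in excitatory neurons went from 46.1% to 24.7%. Snhg11 was then at -0.46 in place of -0.27, and Malat1 at 0.30 in place of 0.50. All 6 members kept their direction and their call under both scalings.

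Genes that share a locus or a function with the members were read in the same fit, in which 70.5% of all genes were called. In the Dlk1-Dio3 domain and its neighbours 4 of 8 listed genes were tested. Rtl1, the imprinted retrotransposon-like gene read in the opposite direction to Meg3 and overlapped by an antisense transcript from which its reads cannot be told apart without a stated strand setting, was lower in excitatory neurons at -0.54 ± 0.06 (log2, SE, adjusted p = 0.000152), as were Begain and Dync1h1 at -0.43 and -0.11, while the phosphatase subunit gene Ppp2r5c was higher at 0.34. In the Prader-Willi and Angelman domain, home of Snhg14, 7 of 11 genes were tested, of which 4 were lower and 2 higher. Snrpn, which encodes a splicing protein and shares the paternal transcription unit of that domain, differed most at -1.88 ± 0.10 (edgeR, adjusted p = 5.7e-06). Ube3a, the ubiquitin ligase that is imprinted in neurons, was at -0.50. Its reads, like those of Rtl1, cannot be told from those of an antisense transcript without a stated strand setting. The median log2 difference was -0.27 over the tested genes of the first list and -0.43 over the second, against -0.03 over all genes.

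Of 15 paraspeckle, speckle and splicing proteins, 14 were tested, 8 of them lower and 3 higher in excitatory neurons, with a median of -0.18. Of all genes 38% were lower and 32.5% higher, so a call by itself sets no gene of this list or the next apart. Qk, the Quaking RNA-binding protein, had the largest difference of the 5 with the smallest p, at -1.11 ± 0.08 (log2, SE, adjusted p = 1.95e-05), followed by the splicing factors Srsf2 at -0.37 and Srsf1 at -0.32, while Celf3, a binding partner of Miat, was at 0.31 and the speckle protein Srrm2 at -0.23. Among 12 other long noncoding RNAs and snoRNA hosts tested, of 31 listed, 7 were lower and 2 higher, with a median of -0.16. Pantr1 was higher at 0.96 ± 0.09 (adjusted p = 7.29e-05), and 6330403K07Rik and A330008L17Rik were lower at -0.74 and -0.58.

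Neurons fell into 25 clusters, of which 12 were excitatory, 9 inhibitory and 4 other neurons. The members and their neighbours were left out of the genes used to build them, so their levels over clusters were not what defined a cluster. Clusters are named here by a subtype where the markers gave one and otherwise by leading genes.

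Meg3 ranged 5.65-fold over the clusters. Dentate granule neurons had the lowest level, 2742 and 2232 CPM in WT, against 1679 and 2642 CPM in Csf1r+/- libraries. At the top was a cluster led by Col18a1, Irx2 and Lama1 with 13069.5, 12904, 12862.5 and 13649 CPM, followed by a cluster led by Ano1 and Prdm16 (12863 ± 665 CPM, SD, n = 4) and the large inhibitory cluster of Otx2os1, Ebf3 and Ebf1 (12058 ± 630 CPM, 7883 nuclei). The next lowest after dentate granule neurons were inhibitory neurons of Lgr6 and Frmd7 at 3852 ± 450 CPM and layer 6 corticothalamic neurons at 5414 ± 215 CPM. The SD of log2 levels was 0.58 between clusters and 0.10 between libraries of a cluster, and 18 of 24 pairs of neighbours in the order overlapped.

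Mirg traced Meg3. Its highest cluster was again that of Col18a1, Irx2 and Lama1, with 226, 305, 223 and 258 CPM, and its lowest was dentate granule neurons, with 30.2, 48.4, 25.4 and 54.4 CPM. Both genes also had the Lgr6 and the layer 6 corticothalamic clusters as next lowest. Pearson's r of log2 levels over the 25 clusters was 0.96, and 0.94 over the 12 excitatory and 0.974 over the 9 inhibitory clusters. The ratio of Meg3 to Mirg CPM stayed between 50.2 and 76.5 with a median of 62.8, while Meg3 itself ranged 5.65-fold. Of 8704 genes compared, the 3 most like Meg3 over the clusters were Mirg (r = 0.96), Rtl1 (r = 0.947) and B830012L14Rik (r = 0.946), and those most like Mirg were Meg3, Rtl1 (r = 0.949) and Timmdc1 (r = 0.933). The clusters share the same 4 libraries and these values describe them.

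Snhg11 also ran with Meg3, at r = 0.915 over the 25 clusters, although its gene lies on another chromosome. Within the 12 excitatory clusters r was 0.759, and within the 9 inhibitory clusters it was 0.896. Dentate granule neurons were far below the rest at 817, 762, 905 and 635 CPM, and the next cluster in the order, that of Lgr6 and Frmd7, had 2252 ± 154 CPM (SD, n = 4). At the upper end the cluster of B230323A14Rik and Sim1 had 5293 ± 403 CPM and that of Six3 and Isl1 5214 ± 486 CPM, and these overlapped. The 3 genes most like it were Gramd1a (r = 0.947), Caprin2 (r = 0.92) and Fgf1 (r = 0.916). Snhg11 and Rmst, by contrast, were at r = 0.467 and within excitatory clusters at 0.00922.

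**Figure D3:**
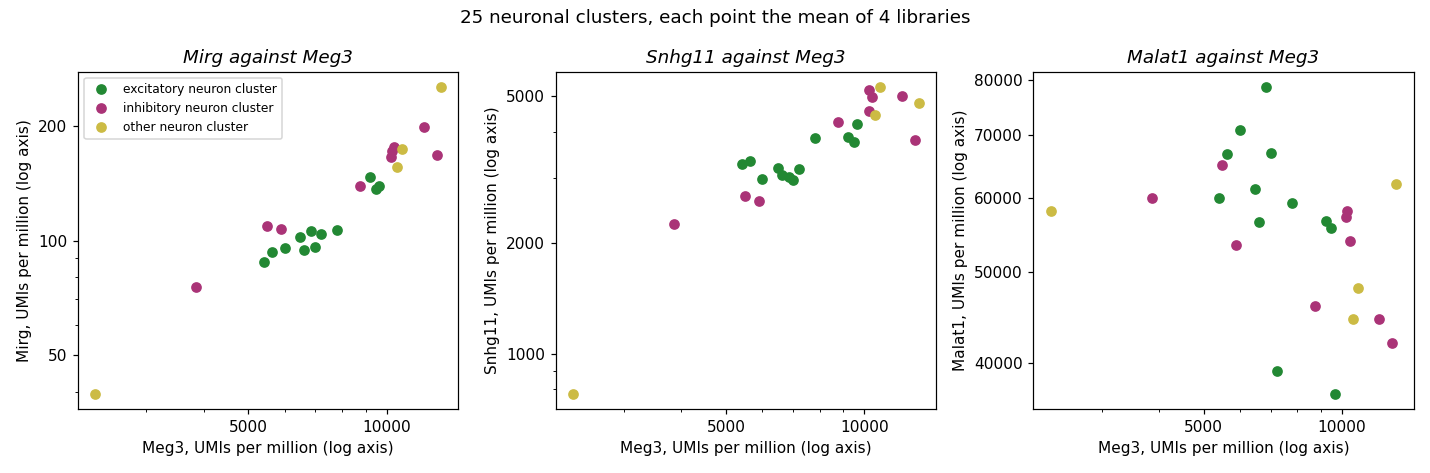
Levels of Mirg, Snhg11 and Malat1 against Meg3 over 25 neuronal clusters (CPM, log axes, each point the mean of 4 libraries, coloured by class). Mirg rose with Meg3 along nearly 1 line (r = 0.96), Snhg11 did so more loosely (r = 0.915), and Malat1 did not (r = -0.42).

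Rmst was the most unevenly spread member, with an SD of log2 levels of 1.56 between clusters against 0.49 between libraries. The cluster of B230323A14Rik and Sim1, 285 nuclei that also had the transcription factor gene Lhx1 among their leading genes, held 2036, 1856.5, 2127 and 1641 CPM of Rmst. Next came the Otx2os1 and Ebf3 cluster at 688, 754, 663 and 734 CPM and thalamic neurons at 412, 438, 414 and 386 CPM. The 3 ranges did not overlap, and the order was the same in all 4 libraries. At the other end dentate granule neurons had 17.6 ± 11.0 CPM, which rests on 2 to 9 UMIs per library, layer 6 corticothalamic neurons 20.2 ± 7.07 CPM and the excitatory cluster of AI481877 and Gm2164 25.3 ± 13.9 CPM. The genes most like Rmst over clusters were only loosely so, Nae1 at r = 0.729, Lrrcc1 at 0.727 and Mapre2 at 0.721.

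Miat peaked in that same AI481877 and Gm2164 cluster, with 298, 298, 290 and 318 CPM, above the range of every other cluster. The Scn7a and Susd5 cluster (227 ± 25.2 CPM) and layer 5 neurons (226 ± 12.3 CPM) came next and overlapped. The lowest were inhibitory clusters, that of Eya4 and Mybpc1 at 51.5 ± 14.4 CPM, that of Lgr6 and Frmd7 at 62.7 ± 5.81 CPM, and that of Sh3rf2 and Rarb, which had the striatal genes Drd2 and Penk among its leading genes, at 65.8 ± 12.8 CPM (SD, n = 4 throughout). Excitatory clusters spanned 123 to 301 CPM and inhibitory clusters 51.5 to 164 CPM. Pgm2l1 (r = 0.808), Faah (r = 0.803) and Fam131a (r = 0.795) were most like Miat.

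**Figure D4:**
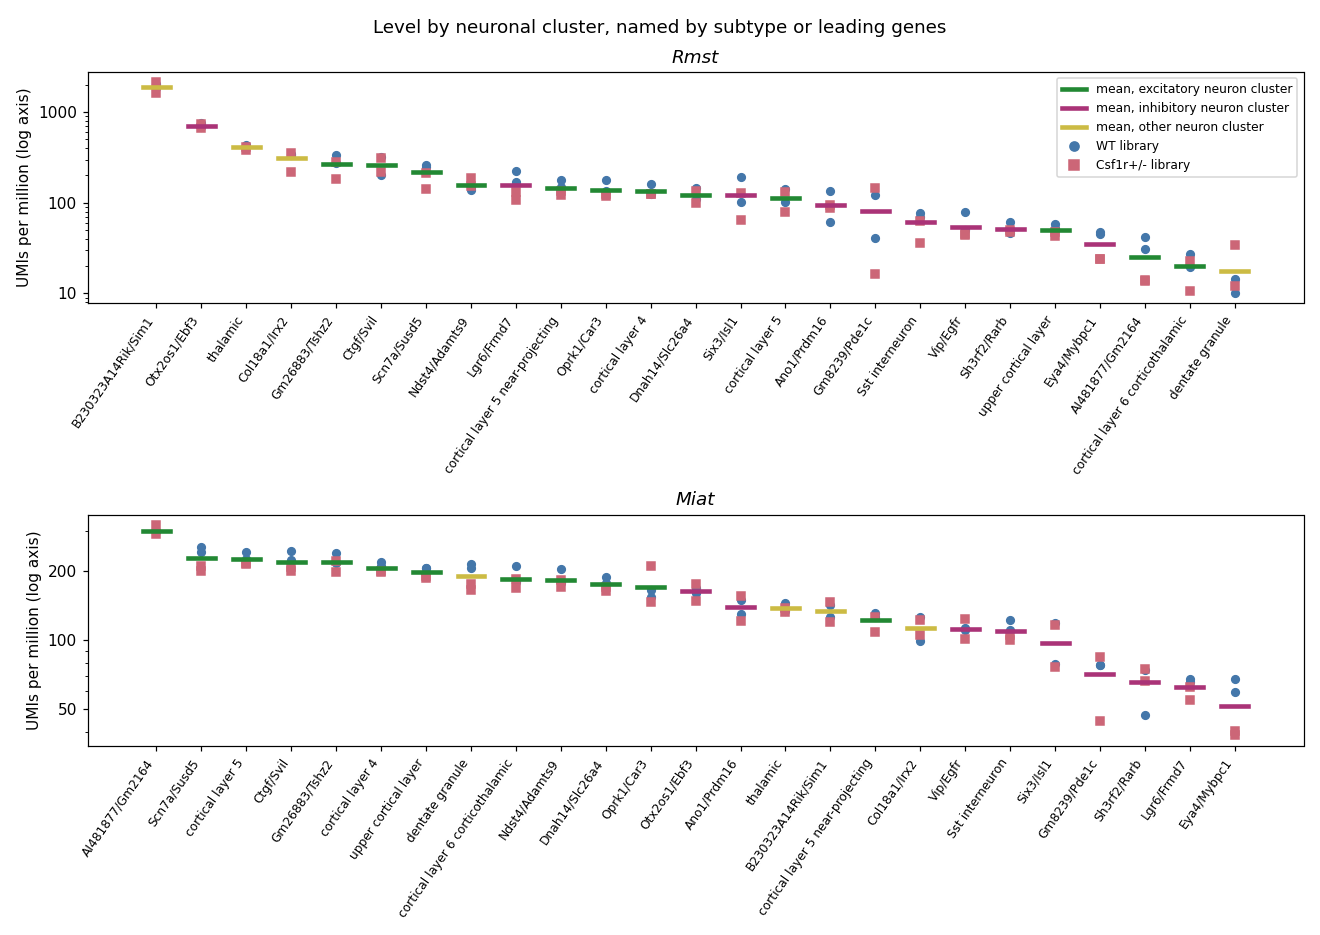
Rmst and Miat by neuronal cluster (CPM, log axes), with 1 point per library and a line at the mean, coloured by class, in order of the mean. Rmst fell from 1915 in the B230323A14Rik and Sim1 cluster to 17.6 in dentate granule neurons, and Miat was highest in the AI481877 and Gm2164 cluster at 301.

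Malat1 was the most even member, ranging 2.12-fold over the neuronal clusters, with an SD of log2 levels of 0.27 between clusters and 0.18 between libraries. The Oprk1 and Car3 cluster was highest, with 75267, 77924, 94947 and 66534 CPM, and layer 5 near-projecting neurons were lowest, with 37109, 37832, 40528 and 32907 CPM. The ends did not overlap but all 24 pairs of neighbours did. Malat1 ran against Meg3 at r = -0.42 over all clusters and at -0.526 within excitatory and -0.65 within inhibitory clusters. Its 3 most similar genes, Jdp2, Ptprk and Smim8, reached r = 0.693, 0.688 and 0.678. Neat1 lay between 0.529 and 4.80 CPM over the clusters, and all 24 pairs of neighbours overlapped.

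The comparison of genotypes addressed whether any of these RNAs differed in Csf1r+/- brains. In excitatory neurons 0 of 6 members tested were called at an adjusted p under 0.05 (edgeR quasi-likelihood test), where 0% of 7642 genes were. The likelihood-ratio test of edgeR called 5 genes, DESeq2 called 7, and 136 genes had an unadjusted p under 0.05. Malat1 was at a log2 fold change of 0.16 ± 0.20 (SE, adjusted p = 0.9998). Meg3 was at 0.03 ± 0.13 and Snhg11 at 0.00 ± 0.14. Miat, Mirg and Rmst were at -0.09 ± 0.11, -0.17 ± 0.10 and -0.22 ± 0.12.

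Inhibitory and other neurons gave 0 of 6 members each, with 0% of genes called in either class. The likelihood-ratio test and DESeq2 also called 0 genes in both, and 78 of 7066 and 166 of 8360 genes had an unadjusted p under 0.05. In inhibitory neurons the members lay between -0.09 (Mirg) and 0.14 (Malat1), with SE of 0.07 to 0.15. In the other neurons they lay between -0.10 (Miat) and 0.08 (Meg3). A test of whether the genotype difference itself differed between excitatory and inhibitory neurons called 0 of 6 members and 0% of 7982 genes (edgeR quasi-likelihood test), with 370 genes at an unadjusted p under 0.05. The interaction terms of the members lay between -0.14 ± 0.11 (Rmst) and 0.01 ± 0.13 (Malat1).

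Summed, the members held 6.74% and 7.17% of UMIs of excitatory neurons in WT and 8.24% and 6.69% in Csf1r+/- libraries. The groups overlapped, since the 2 Csf1r+/- libraries were the highest and the lowest of the 4. The share of Malat1 alone, which made up most of the sum, differed by 0.527 percentage points (exact permutation test, two-sided, p = 1), and by -0.243 without Csf1r+/- replicate 1. With 2 libraries against 2 this test cannot give a p under 0.333. In inhibitory neurons the sums were 6.30% and 6.15% against 7.35% and 6.13%, again with the 2 Csf1r+/- libraries at the ends.

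Clusters of neurons were tested one by one as well. Of 149 tests of a member in a cluster 0 were called after adjustment, where 0.0027% of 184869 tests over all genes were. At an unadjusted p under 0.01, 4 of the 149 passed, where 0.593% of all tests did. Rmst accounted for 3 of the 4. In the AI481877 and Gm2164 cluster it had 31.0 and 42.3 CPM in WT, against 14.2 and 13.6 CPM in Csf1r+/- libraries (log2 fold change -1.33 ± 0.23, SE, edgeR, adjusted p = 0.185). In the Eya4 and Mybpc1 cluster it had 45.6 and 47.6 against 23.8 and 23.8 CPM (-0.98 ± 0.17, edgeR, adjusted p = 0.256), and Miat in the same cluster had 59.8 and 67.6 against 38.5 and 40.1 CPM (-0.70 ± 0.15, edgeR, adjusted p = 0.376). The third Rmst value came from the Lgr6 and Frmd7 cluster, with 221 and 167 against 107 and 131 CPM (-0.70 ± 0.18, edgeR, adjusted p = 0.998). The groups did not overlap in any of these, but the 4 were picked by their small p, so this adds no support. Rmst rested on 38 to 125 UMIs per library in the first, 55 to 151 in the second and 129 to 361 in the third of these clusters, and none of the 4 values held after adjustment.

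**Figure D5:**
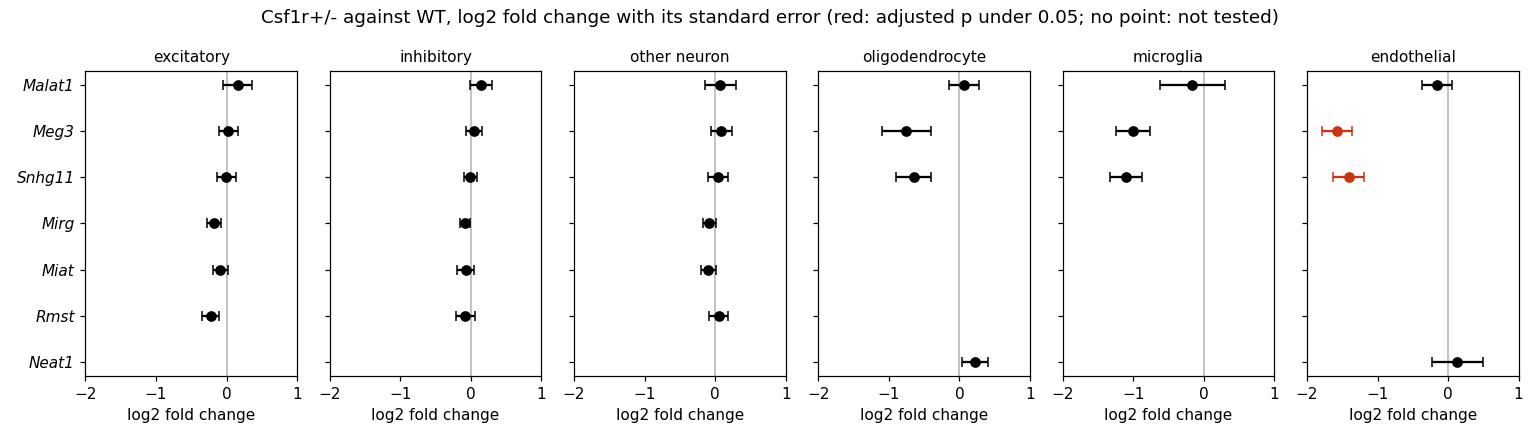
Log2 fold change of Csf1r+/- against WT for each member in 6 classes, with bars of 1 SE (edgeR, 2 libraries per genotype); red points passed an adjusted p of 0.05 and members without a point were not tested. The called values were Meg3 (-1.57) and Snhg11 (-1.41) in endothelial nuclei.

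Outside neurons the picture was different for Meg3 and Snhg11. In endothelial nuclei 2 of 4 members tested were called, where 4.32% of 4420 genes were. Meg3 had 1393 and 1295 CPM in WT, against 415 and 523 CPM in Csf1r+/- libraries, a log2 fold change of -1.57 ± 0.21 (SE, edgeR, adjusted p = 0.00079). Snhg11 had 767 and 871 against 308 and 332 CPM, -1.41 ± 0.22 (adjusted p = 0.00118). For both genes the 2 Csf1r+/- libraries were under the 2 WT libraries. Over members and classes, 18 of 42 shares of UMIs did not overlap between genotypes, in either direction. Malat1 and Neat1 were at -0.16 ± 0.21 and 0.13 ± 0.36 and were not called. The difference rested on how the endothelial nuclei were drawn. With clusters at a resolution of 0.5, which were not divided again, 779 nuclei were taken as endothelial in place of 589. Meg3 was then at -0.67 (edgeR, adjusted p = 0.563) and Snhg11 at -0.58 (adjusted p = 0.566), whereas both stayed called over the other alternatives. The division at resolution 1 had set apart 147 nuclei with endothelial and pan-neuronal markers, of which 77.6% had high doublet scores. The part of such nuclei in the change at resolution 0.5 was not tested.

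The markers of neurons moved with these values. Snap25 in endothelial nuclei was at 232 and 237 CPM in WT, against 113 and 115 CPM in Csf1r+/- libraries, and the 6 summed pan-neuronal markers at 3902 and 3491 against 1415 and 1945 CPM. Of the 5 pan-neuronal markers tested there, 4 were called lower and 5 of 5 were below 0, with a median of -1.11. No defining marker of neurons among the 6 was at 0 in the class. In neurons themselves 0 of the 6 markers were called. The part of neuronal RNA in the lower Meg3 and Snhg11 of endothelial nuclei was not tested.

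Microglia, the cells that express Csf1r, showed the same direction without a call. Snhg11 had 1043 and 1216 CPM in WT, against 534 and 599 CPM in Csf1r+/- libraries (log2 fold change -1.10 ± 0.23, SE, edgeR, adjusted p = 0.0776). Meg3 had 1717 and 2238 against 1013 and 1107 CPM (-1.01 ± 0.24, edgeR, adjusted p = 0.107). Thus 0 of 3 members tested were called, where 0% of 3067 genes were, and 403 genes had an unadjusted p under 0.05. Both genes passed the unadjusted threshold of 0.01, as did 5.09% of the genes. The likelihood-ratio test called 128 genes and both members, and DESeq2 called 10 genes, Snhg11 among them (adjusted p = 0.0492). Calls of Snhg11 and Meg3 changed with the library left out, and such fits rest on 1 library of a genotype. At a resolution of 0.5, where clusters were not divided again and 1150 nuclei were taken in place of 674, the values were 0.00 and 0.02. The division at resolution 1 had set apart 3 clusters of 191, 144 and 141 nuclei with microglia and pan-neuronal markers. Of their nuclei 71.2%, 52.1% and 82.3% had high doublet scores, and their part in the change was not tested. A cluster of 33 nuclei led by Mrc1 and F13a1 stayed in the microglia class. It also held 5 pan-neuronal markers, and 30.3% of its nuclei had high doublet scores. WT libraries had 9 and 12 of these nuclei and Csf1r+/- libraries 5 and 7, and their part was not tested. The pan-neuronal markers summed to 5925 and 6739 CPM in WT, against 3364 and 5236 CPM in Csf1r+/- microglia. Of the 5 tested, 0 were called and 5 were below 0, with a median of -0.77. The part of neuronal RNA was not tested here either. Malat1 was at -0.16 ± 0.46.

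In oligodendrocyte nuclei 0 of 4 members were called, where 0% of 3521 genes were, 161 genes had an unadjusted p under 0.05, and the likelihood-ratio test and DESeq2 each called 1 gene. Neat1, which had its highest level here, was at 561 and 690 CPM in WT, against 715 and 778 CPM in Csf1r+/- libraries. The groups did not overlap, as in 18 of 42 such comparisons over members and classes. The log2 fold change of Neat1, 0.22 ± 0.18 (SE, edgeR, adjusted p = 0.983), was not called. Malat1 was at 0.06 ± 0.21, Snhg11 at -0.65 ± 0.25 and Meg3 at -0.75 ± 0.35. Without WT replicate 2, the library with most of the oligodendrocyte nuclei, Meg3 was at -1.16 and Snhg11 at -0.88. Without WT replicate 1 they were at -0.19 and -0.38. Such fits take the lone WT library to vary like the Csf1r+/- pair. The pan-neuronal sum was 6382 CPM in WT replicate 1, 3209.5 CPM in WT replicate 2, and 2617 and 3438 CPM in Csf1r+/- libraries, and its part in this was not tested.

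Whether the genotype difference outside neurons differed from that in excitatory neurons was tested with an interaction term in edgeR, a comparison chosen after seeing the data. For endothelial nuclei the term, endothelial minus excitatory, was -1.64 ± 0.31 for Meg3 (log2, SE, adjusted p = 0.0211) and -1.43 ± 0.30 for Snhg11 (adjusted p = 0.0225), where 1.78% of 8647 genes were called. For microglia the terms were -1.04 ± 0.40 for Snhg11 (adjusted p = 0.439) and -0.97 ± 0.47 for Meg3 (adjusted p = 0.546), where 0.0124% of genes were called. For oligodendrocyte nuclei 0 of 7 members and 0% of 7938 genes were called.

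The pathway lists showed few differences between genotypes. Of 8, 11, 15 and 31 listed genes, those tested in excitatory neurons numbered 4, 6, 14 and 12, and none was called. The smallest p of the 4 lists there was that of Snrpn, at -0.48 ± 0.11 (edgeR, adjusted p = 0.9998), where 0.288% of all genes passed an unadjusted 0.01. Rtl1, from the Meg3 locus, was at 0.40 ± 0.18 in excitatory and 0.41 ± 0.23 in inhibitory neurons. Nothing in the 4 lists was called in inhibitory or other neurons, oligodendrocytes or microglia, where 0% of all genes were called. In these classes 0.0142%, 0.215%, 0.341% and 5.09% of genes passed the unadjusted threshold. In endothelial nuclei 2, 5, 13 and 5 genes of the lists were tested. There 4.32% of all genes were called and 6.61% passed the unadjusted threshold. Gabrg3, a GABA receptor subunit gene of the Prader-Willi and Angelman domain that neurons express, was lower at -1.60 ± 0.30 (edgeR, adjusted p = 0.00222). The other tested genes of the lists were not called. Oligodendrocyte and microglia nuclei had Gabrg3 at -0.94 ± 0.33 and -1.45 ± 0.42, neither called.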

How the data were processed

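The authors isolated nuclei from perfused brains with a detergent-free kit, depleted myelin and made Chromium 3′ v3.1 libraries. The deposited values are raw UMI counts per gene and nucleus from Cell Ranger 5.0.0, aligned to mm10 per the labels, with no normalization. The annotation release and the intron and strand settings are not given in the sources used here. Kept nuclei held between 500 and 50000 UMIs, over 200 detected genes and a mitochondrial share below 5%. They were clustered with scanpy 1.11.5 (3000 variable genes without the members, 30 components, Leiden resolution 1) and classes were named from fixed markers. Clusters that held markers of more than 1 glial or vascular class were divided again, a step chosen after seeing the data. The microglia, endothelial, oligodendrocyte precursor and astrocyte classes are all parts of clusters divided in this way. Clusters with high doublet scores in over 50% of their nuclei were left without a class. Other nuclei with high scores were kept, and removed in an alternative. In all, 11 clusters with 4436 nuclei (8.51%) had no class and entered no class level or class test. They were 12.3% of WT replicate 2 and 5.58% to 8.08% of the other libraries. Counts were summed per library and class. Genes found in at least 10% of nuclei with at least 10 counts were tested with edgeR 4.0.16 (quasi-likelihood, TMM, Benjamini-Hochberg), with DESeq2 1.42.0 as an alternative, after tests on simulated data. For neuronal clusters, the 3 highest and 3 lowest of each member are named, with the 3 genes most like it. The members and lists were chosen with earlier results of these data known. Total deposited UMIs were 89436507 to 112226479 per library, and class totals limit precision for rare classes.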

Additional observations from a re-analysis of the deposited data

Results flagged for a closer look

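The genotype difference of Meg3 and that of Snhg11 in endothelial nuclei differed from those in excitatory neurons in a test of the interaction, by -1.63533 (log2) for Meg3 and by -1.43477 for Snhg11. The level of pan-neuronal markers in endothelial nuclei moved in the same direction, and its part in these values was not tested.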

How the results depend on the processing

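Of 406 alternative values for 29 differences of a member between genotypes, 360 kept direction and side of the threshold, and between excitatory and inhibitory neurons the 6 members did so in all 54. The cause of the changes below was not tested, and without 1 library the lone library of a genotype is assumed to vary like the others. Differences near 0 changed sign (log2). Snhg11 in excitatory neurons was at 0.00469119 with DESeq2, 0.00468825 with RLE size factors, 0.0367927 without the detection filter, 0.000515805 without high doublet scores and 0.00225395 at resolution 0.5, and in inhibitory neurons at 0.0032785 without the filter and 0.0021765 at resolution 0.5. Meg3 in excitatory neurons was at -0.00940721 with library totals. In microglia, resolution 0.5, where mixed clusters were not divided again, took the larger differences of Snhg11 (-1.10) and Meg3 (-1.01) to 0.000170928 and 0.0245169. It took Malat1 (-0.16) to 0.0267125.

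Leaving out 1 library at a time, excitatory neurons ranged from -0.0932658 to 0.0869342 for Snhg11, -0.159435 to 0.000243385 for Miat, -0.0094552 to 0.0652877 for Meg3 and -0.0257995 to 0.318786 for Malat1. Inhibitory neurons ranged from -0.0632045 to 0.0523952 for Snhg11, -0.215004 to 0.0659603 for Miat, -0.249215 to 0.0822941 for Rmst, -0.070268 to 0.151925 for Meg3 and -0.0403986 to 0.311112 for Malat1. Other neurons ranged from -0.0573066 to 0.140816 for Snhg11, -0.110172 to 0.193435 for Rmst and -0.193828 to 0.295075 for Malat1. Malat1 ranged from -0.244829 to 0.32815 in oligodendrocyte nuclei and -0.345924 to 0.0015826 in microglia, and Neat1 from -0.547768 to 0.524255 in endothelial nuclei.

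Genes called in excitatory neurons were 5 by the likelihood-ratio test and 7 by DESeq2, and in oligodendrocyte nuclei 1 by each. In microglia the likelihood-ratio test called 2 members and 128 genes, and DESeq2 1 member and 10 genes. In endothelial nuclei DESeq2 called 62 genes, nuclei of at least 1000 UMIs gave 118, removal of high doublet scores 92, and resolution 0.5 gave 12 genes and 0 members. Leaving out 1 library gave 0 to 78 genes in inhibitory neurons and 0 to 45 in other neurons (the highest without WT replicate 1), 0 to 132 genes and 0 to 2 members in oligodendrocyte nuclei (110 without WT replicate 1, 132 without WT replicate 2), 0 to 169 genes and 0 to 2 members in microglia (143 without WT replicate 1, 169 without Csf1r+/- replicate 2), and 41 to 181 genes in endothelial nuclei (112 without WT replicate 1, 41 without Csf1r+/- replicate 1).

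The labels do not state that shared replicate numbers pair mice, and the main fits left them out. Deviations of same-numbered libraries correlated at -0.0852 over 7642 genes in excitatory and -0.0106 over 7066 genes in inhibitory neurons. With 2 libraries per genotype these values cannot exclude a pairing. With the replicate block microglia gave 2 members and 210 genes called, and endothelial nuclei 2 members and 192 genes.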

Other observations

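Among the 11 clusters without a class was 1 of 1206 nuclei with a median of 929 UMIs. Over 4 libraries it had means of 49912 CPM for Malat1, 7160 CPM for Meg3 and 4174 CPM for Snhg11, each between the lowest and the highest library of the neuron classes. Neat1 was at 10.4 to 16.9 CPM, above every library of excitatory, inhibitory and other neurons (1.22 to 6.67 CPM). These values rest on only 10, 8, 8 and 4 UMIs (WT replicates 1 and 2, then Csf1r+/- replicates 1 and 2). Among single neuronal clusters, that of B230323A14Rik and Sim1 reached 11.4 CPM in a library.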
